A study of Rattus norvegicus with 8 samples.

Results

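The DNA on either side of promoters that carried more methylation in rat bladder tumours was described here by its distance from those promoters. The members were the CpGs (cytosines followed by a guanine) that lay 1 to 10 kb outside each of the 246 promoter regions listed by the study as hypermethylated in urothelial carcinomas (UCs), and in no other listed region or its 1-kb margin. Of 3403609 CpGs in the files, 15014 were such flank CpGs, around 245 of the 246 regions. For each region they were divided by side and by distance into 1-kb windows, of which 1874 of 4428 held a CpG and 966, around 221 regions, had 3 or more CpGs read at least 3 times in each of the 8 samples. Those 966 windows are the ones described below, and the other 25 regions had none, among them Opcml.

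The animals were male F344/DuCrj rats that drank water with 0 ppm (3 controls) or 200 ppm (5 UCs) of dimethylarsinic acid, an organic arsenic compound, for up to 104 weeks from 10 weeks of age. The controls are bladder urothelium in the sample labels, but the study's methods describe them as excised bladder tissue. Whether cell composition differed between the groups was not tested. Each UC is a bladder tumour, BT1 to BT5 in the labels and UC 1 to UC 5 below. Methylation was measured by reduced representation bisulfite sequencing (RRBS), in which DNA is cut at CCGG and TCGA sites, and a methylation level is the percentage of reads of a CpG that were read as methylated. The tumours were chosen for size, their histology was not examined, and the labels do not say whether each came from another rat, so spreads between UCs may not be spreads between animals.

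The regions were chosen by the study because UCs exceeded controls in these same 8 samples. The comparison of UCs with controls beside them is the same contrast in neighbouring CpGs, so its values are given as a description. Calls of single windows as higher or lower, below, come from a model of this same contrast. They sort the windows and are no independent support for the list. In bulk tissue a larger share of cells with a methylated copy and more methylation within each cell cannot be told apart.

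Promoters in mammals often lie in CpG islands, stretches rich in CpGs that stay unmethylated in normal tissue, while most CpGs of the surrounding DNA are methylated. Between both lies the island shore, where the level changes from low to high over a short distance. Developmental transcription factor genes are known for unusually wide unmethylated domains that reach well beyond the promoter, and such domains are known to gain methylation in many cancers.

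Of the listed genes, 181 had a promoter in RefSeq (rat assembly GRCr8). Over the 250 bases before the gene start the median promoter of these genes held 17 CpGs, against 5 over all 33469 promoters. The motif CCGG, a cut site of the assay that reads the same on both strands, was present in 84.7% of them and in 46.2% of all promoters. The assay reads CpGs near such cut sites. The study drew its list from regions on CpG islands close to gene starts that this assay had read. More CpGs and more cut sites than in all promoters thus come with that choice. The promoters of 3 genes are shown as the DNA beside which flanks were measured, with each CpG in capitals: Mmp23 (a matrix metalloproteinase) had the largest difference inside its region among regions measured at 1 to 2 kb, Grin1 (the obligate subunit of NMDA receptors) rose several kilobases away, and Sp9 (a zinc-finger transcription factor) had the most windows among regions where none was called higher or lower. They are written 5′ to 3′ on the gene's strand and lie at chr5:171524535-171524784 (minus strand), chr3:28528755-28529004 (minus strand) and chr3:78554095-78554344 (plus strand) of GRCr8, with 20, 19 and 31 CpGs. All other coordinates below are of the rn6 build of the files.
Mmp23: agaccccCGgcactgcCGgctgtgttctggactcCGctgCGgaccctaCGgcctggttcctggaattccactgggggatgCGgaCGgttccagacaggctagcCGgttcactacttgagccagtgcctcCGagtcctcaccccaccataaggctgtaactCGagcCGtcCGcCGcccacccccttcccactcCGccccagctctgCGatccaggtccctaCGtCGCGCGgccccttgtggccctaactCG
Grin1: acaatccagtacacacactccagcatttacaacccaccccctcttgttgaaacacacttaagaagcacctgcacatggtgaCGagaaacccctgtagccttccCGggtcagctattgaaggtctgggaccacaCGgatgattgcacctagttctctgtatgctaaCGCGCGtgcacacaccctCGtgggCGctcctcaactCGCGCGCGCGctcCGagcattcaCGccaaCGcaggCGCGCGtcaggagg
Sp9: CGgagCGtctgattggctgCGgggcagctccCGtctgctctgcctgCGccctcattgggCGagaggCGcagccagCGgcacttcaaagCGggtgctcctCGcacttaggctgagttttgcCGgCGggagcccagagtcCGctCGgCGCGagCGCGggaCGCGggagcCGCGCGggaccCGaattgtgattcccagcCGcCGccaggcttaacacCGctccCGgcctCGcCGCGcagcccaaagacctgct

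Over all flank CpGs together the methylation level was 27.7%, 26.0% and 24.8% in controls 1 to 3 and 33.8%, 34.5%, 28.6%, 31.7% and 30.4% in UC 1 to 5. Every UC lay above every control, UC 3 by less than 1 percentage point, and the group means differed by 5.63 points (26.2% ± 1.48, SD, n = 3, in the controls and 31.8% ± 2.40, SD, n = 5, in the UCs). Over all CpGs of the series the means differed by 1.95 points, and 2 of 5 UCs lay above every control.

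Going outward from the regions, control levels climbed steeply, while the difference was largest in the nearest kilobase and lay between 1.22 and 6.46 points, with no steady trend, from 2 to 10 kb. Inside the listed regions, where the difference is what the study listed them for, the level was 5.001% ± 0.571 (SD, n = 3) and 26.6% ± 5.30 (SD, n = 5) in controls and UCs, and in the margin of 0 to 1 kb it was 5.55% ± 0.626 (SD, n = 3) and 16.2% ± 3.25 (SD, n = 5). At 1 to 2 kb it was 14.7%, 13.1% and 12.3% in controls 1 to 3 and 24.6%, 25.3%, 17.6%, 21.5% and 21.0% in UC 1 to 5, so that the means were 8.64 points apart and no UC overlapped a control. At 2 to 3 kb it was 25.5%, 24.7% and 22.9% in controls 1 to 3 and 30.8%, 30.5%, 25.3%, 29.6% and 26.3% in UC 1 to 5, and the groups touched, since UC 3 was below control 1. The difference of the means there was 4.13 points.

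Between 3 and 10 kb the control mean lay between 28.2% and 39.9%, well above the 13.3% of the nearest kilobase. The difference was 5.99 points at 3 to 4 kb, 1.22 at 4 to 5 kb, 5.52 at 5 to 6 kb, 3.41 at 6 to 7 kb, 6.46 at 7 to 8 kb, 4.79 at 8 to 9 kb and 5.14 at 9 to 10 kb. All 5 UCs were above every control at 3 to 4, 5 to 6, 7 to 8 and 8 to 9 kb, 4 of 5 at 6 to 7 and 9 to 10 kb, and 2 of 5 at 4 to 5 kb. Beyond the flanks, at 10 to 20 kb, the difference was 2.42 points. Just inside and just outside the limits of the rule the difference was 9.41 points at 0.5 to 1 kb, 8.53 at 1 to 1.5 kb, 5.14 at 9 to 10 kb and 1.01 at 10 to 11 kb.

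**Figure D1:**
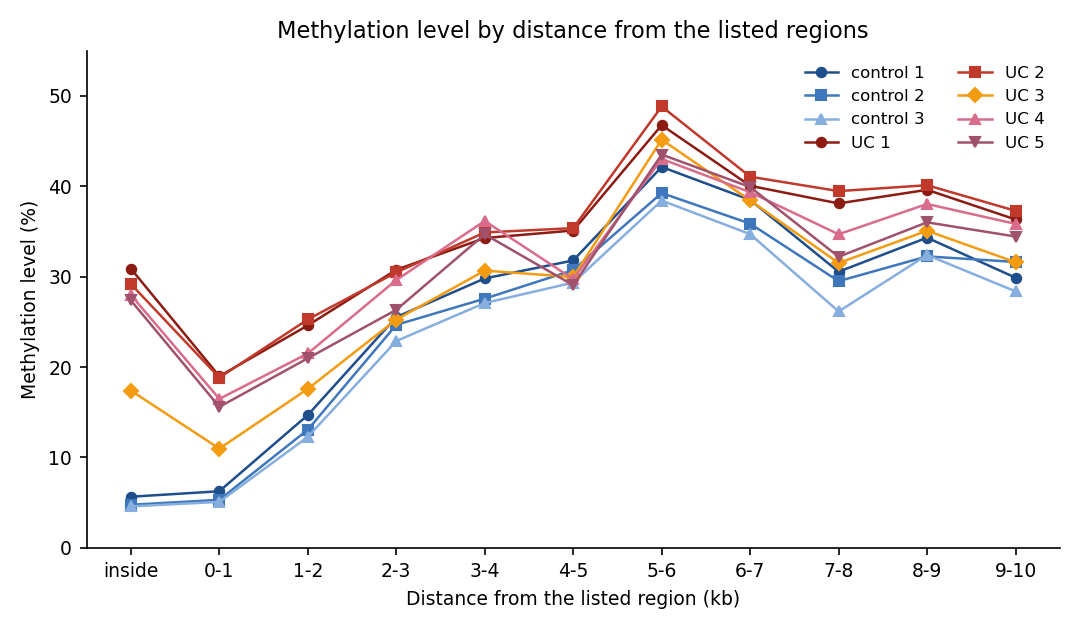
Methylation level (%, y axis) of each of the 8 samples inside the 246 listed regions, in their 1-kb margin and in each 1-kb distance bin of the flanks (x axis, kb); 1 line per sample, blue for controls and red or orange for UCs. Control levels climb from 13.3% at 1 to 2 kb to 39.9% at 5 to 6 kb, and the UC lines lie mostly above them, UC 3 (orange) closest.

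The unbroken stretch in which every UC exceeded every control therefore ended at 2 kb, and single samples decided that limit: it was 4 kb without UC 3 and 4 kb without control 1. The flank of Gp1bb, a platelet glycoprotein gene, had an uneven share of the calls at 4 to 5 kb. Its calls were 2.80 times more frequent, relative to all calls of the sample, in UC 4 and UC 5 than in the mean of the other samples, and it gave 18.8% and 19.4% of all calls of that bin in them, against 4.65% to 8.95% in the others. That window was almost unmethylated, at 1.504%, 1.59% and 0.938% in controls 1 to 3 and 2.95%, 3.01%, 1.64%, 1.17% and 1.16% in UC 1 to 5. Without the flank of Gp1bb, an alternative chosen after the data were seen, the difference at 4 to 5 kb was 3.03 points, still the lowest of the 9 bins, and UC 3 stayed below control 1.

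When each window counted equally, in place of each call, control levels were higher and differences smaller: 5.54 points at 1 to 2 kb, 1.99 at 5 to 6 kb and 1.03 at 9 to 10 kb. At 1 to 2 kb the mean window level was 29.8%, 29.8% and 29.96% in controls 1 to 3 and 39.6%, 38.8%, 31.995%, 33.3% and 33.4% in UC 1 to 5. Summed calls weigh CpG-dense windows more, and these were low in controls.

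Single windows moved in both directions. The difference was over 10 points in 218 of 966 windows (22.6%), against 16.7% of all 241346 1-kb stretches of the series with as many CpGs and reads, and under -10 points in 110 (11.4%), against 16.5%. Every UC lay above every control in 249 windows (25.8%), against 15.7% of all stretches, and below in 71 (7.35%), against 12.3%. The median difference of a window was 3.21 points, against 0.394 in the 239920 stretches outside regions, margins and flanks.

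A call of higher or lower meant a difference over 10 points and an adjusted p under 0.05 in a quasi-binomial model with moderated dispersion, adjusted over all 241346 stretches. 136 windows around 77 regions were called higher (14.1%, with 10.2% over all stretches), and 51 windows around 39 regions were called lower (5.28%, with 9.21% over all stretches). These counts depended on single libraries, as did the shares over all stretches. Without control 1 they were 91 and 27 (9.42% and 2.80%, with 6.35% and 5.74% over all stretches). Without control 2 they were 79 and 26 (8.18% and 2.69%, with 6.25% and 5.69% over all stretches), and without control 3 73 and 22 (7.56% and 2.28%, with 5.72% and 5.56% over all stretches). Windows called higher had a median control level of 11.9%, and windows called lower one of 76.6%. A window called each way was present around 15 regions, among them Septin9, Bfsp1 and Hoxc10 (Hoxc10 was named after its values were seen). Around 120 regions no window was called. Regions with any used window had 1 to 16 of them, and counts of regions were not set against groups of other stretches of like size. With calls in both directions over all stretches, no trait of these regions is read from such counts.

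By distance, the share of windows over 10 points higher went from 28.7% of 164 windows at 1 to 2 kb to 15% of 80 at 9 to 10 kb, with values between 18.5% and 25.2% in the 7 bins between. Shares over 10 points lower lay between 6.71% (1 to 2 kb) and 16.5% (6 to 7 kb). The median control level of the windows went from 9.35% to 74.1% over the same bins.

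**Figure D2:**
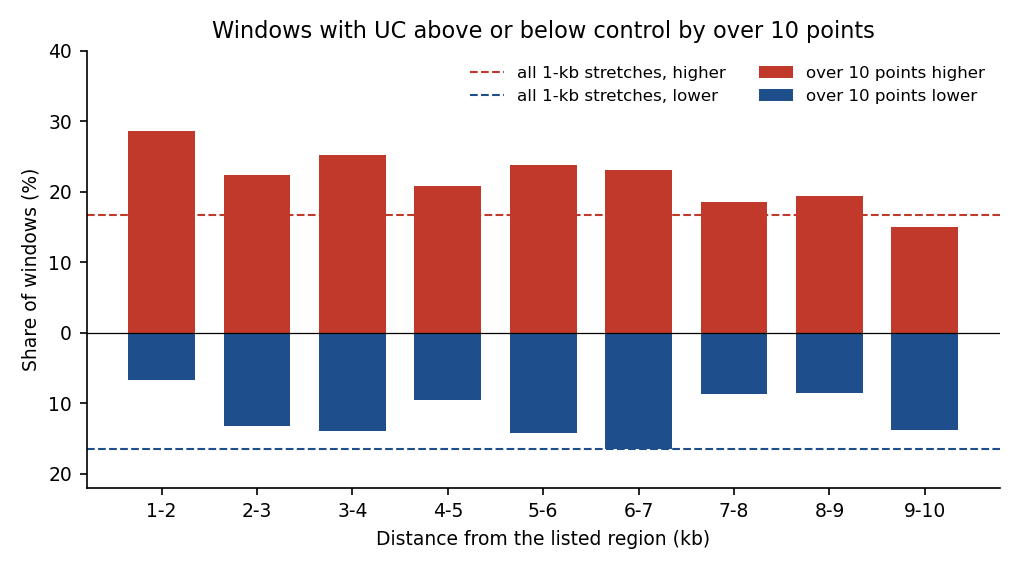
Share of used windows (%, y axis) in each 1-kb distance bin (x axis, kb) whose UC mean exceeded the control mean by over 10 points (red, upward) or fell below it by over 10 points (blue, downward); dashed lines give the same shares over all 1-kb stretches of the series, 16.7% and 16.5%. The upward bars are above their line in every bin but 9 to 10 kb, and the downward bars are shorter than theirs or, at 6 to 7 kb, level with it.

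Differences varied over a wider range with the control level of a window than with its distance. In the 296 windows under 10% in the controls, the median over windows was 3.34%, 3.15% and 2.62% in controls 1 to 3 and 10.3%, 9.72%, 5.91%, 7.95% and 7.08% in UC 1 to 5. Each UC median was above each control median, and the difference was over 10 points in 27.7% of windows. It was above 0 in 252 of them. In the 27218 other stretches under 10%, 8.80% were over 10 points, and the median difference was 0.0885 points against 5.06 in the flanks.

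These other stretches were lower in controls to begin with (median 0.820% against 3.12%), so the class was divided further, after the data were seen. Under 2% in controls the median difference was 2.45 points in 87 flank windows and 0.0629 in 19049 other stretches. From 2 to under 5% it was 7.07 points in 134 windows and 1.48 in 4684 stretches. From 5 to under 10% it was 5.49 points in 75 windows and 1.40 in 3485 stretches. The flank value was the higher in each of the 3 classes. UC 3 had the smallest gain among the low windows, with a median of 2.50 points over the control mean, against 3.83 to 5.92 in the other UCs.

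Windows with intermediate or high control levels were nearer to the rest of the series. From 10 to under 50% the median difference was 6.69 points in 177 windows and 6.91 in the other stretches of that class. From 50 to under 80% it was 3.67 points in 225 windows and 2.19 elsewhere, and 66 windows were over 10 points higher while 52 were over 10 points lower. At 80% and over the median was 0.0393 points in 268 windows, with 4 over 10 points higher and 36 lower. A window near 100% has no room above it and one near 0% none below. The control mean is also part of the difference, and with the class taken from control 1 alone and the difference from controls 2 and 3 the low windows had a median of 5.24 points, against 0.121 elsewhere.

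**Figure D3:**
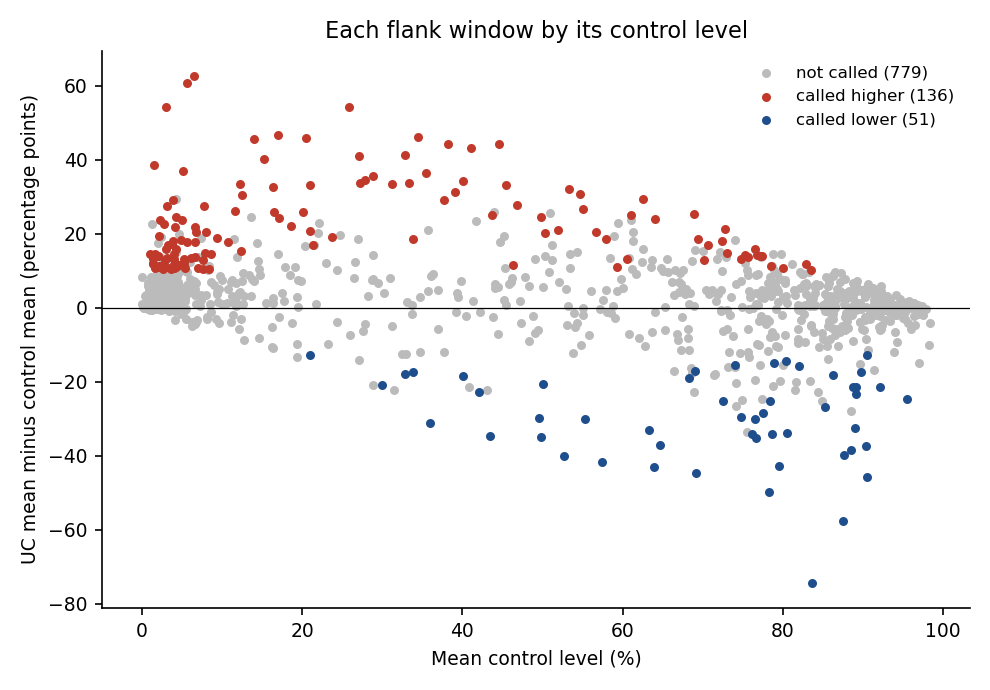
Each of the 966 flank windows by its mean control level (%, x axis) and the UC mean minus the control mean (percentage points, y axis); red windows were called higher, blue called lower, grey not called. Of the 136 red windows, 66 lie under 10% in controls, where none can be blue, since a level there cannot fall by over 10 points. Of the 51 blue windows 41 lie at 50% or more.

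Among low windows the difference was smaller with distance. At 1 to 2 kb the median difference was 7.15 points in 84 windows under 10% in controls, at 2 to 5 kb 5.52 in 114, and at 5 to 10 kb 3.53 in 98. Among windows of 80% and over it was 0.0365, -0.239 and 0.321 points at these distances. Windows under 10% that joined their region through an unbroken series of low windows (134) had a median of 5.98 points, and those parted from it by a window of 10% or more (91) one of 3.26. The other 71, with a window between that could not be measured, had one of 5.18. Most of the parted windows were farther out, and the gap differed by distance. At 2 to 5 kb the medians were 5.67 points in 49 joined and 3.50 in 26 parted windows, and 5.18 in the 39 that could not be placed. At 1 to 2 kb they were 7.21 points in 78 joined, 8.56 in 3 parted and 6.81 in 3 that could not be placed. At 5 to 10 kb they were 3.47 points in 7 joined, 3.11 in 62 parted and 5.05 in 29 that could not be placed.

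By CpG density, counted as the CpGs listed in a window in any sample, the median difference was 2.33 points in 539 windows of 3 to 9 CpGs, 3.58 in 337 of 10 to 29 and 4.40 in 90 of 30 or more. In other stretches it was 0.527, 0.654 and 0.0705 points. Differences over 10 points were all upward in windows of 30 or more CpGs and went both ways in those of 3 to 9. Of the dense windows, 82 were under 10% in controls and could not fall by over 10 points. Of the 90 dense windows, 21 (23.3%) were over 10 points higher, against 6.999% of other dense stretches, none was over 10 points lower, and every UC exceeded every control in 55, 61.1%, against 17.5%. Of the 539 sparse windows, 116 (21.5%) were over 10 points higher and 88 (16.3%) lower, against 17.1% and 19.0% of other sparse stretches.

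Density and control level went together, with a median control level of 72.8% in the sparse and 2.03% in the dense windows. Among windows under 10% in controls the median difference was 4.09 points with 3 to 9 CpGs, 6.57 with 10 to 29 and 3.88 with 30 or more. The middle density thus had the highest value, with 33.3% of 156 windows over 10 points, against 10.1% of the other stretches of that class. Quartiles overlapped between the 3 densities (1.05 to 9.20, 2.31 to 11.5 and 0.765 to 8.20 points).

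**Figure D4:**
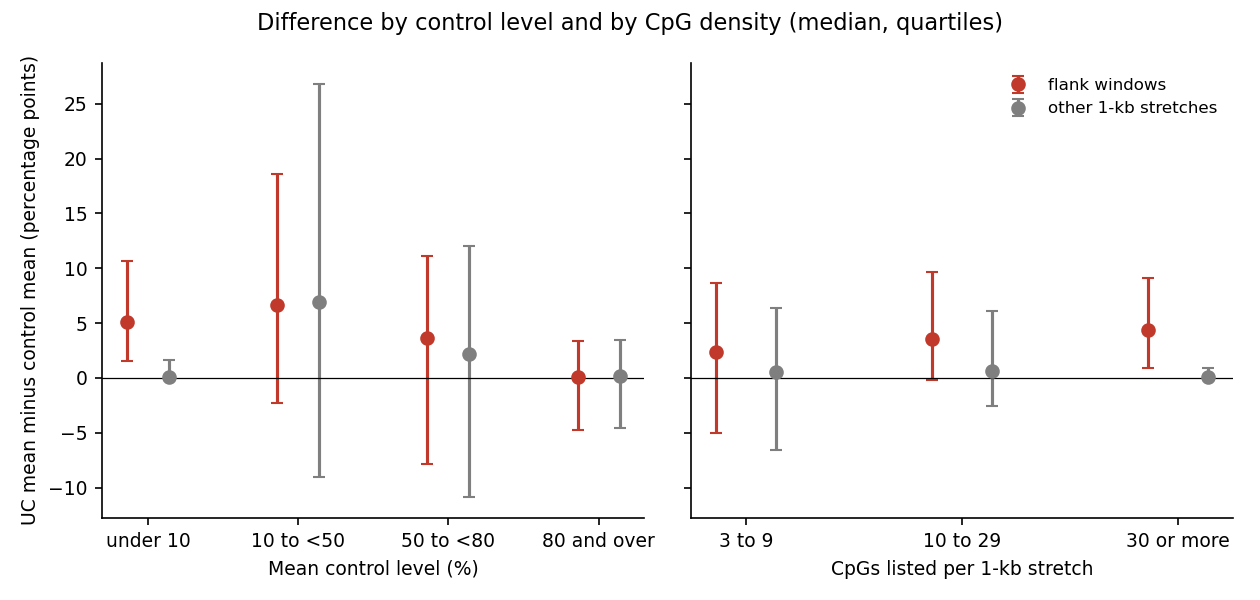
Median (points) and quartiles (bars) of the UC mean minus the control mean (percentage points, y axis) for flank windows (red) and all other 1-kb stretches (grey), by mean control level (left) and by CpGs listed per stretch (right). Red lies above grey under 10% control level (5.06 against 0.0885 points) and at 30 or more CpGs (4.40 against 0.0705), and the bars overlap in every class but the densest.

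The kind of gene beside the windows went with their control level. The 35 regions of developmental transcription factor genes had 272 of the 966 windows, and 65.4% of these were under 10% in controls, against 20.4% for genes of receptors, channels and transporters (98 windows), 7.14% for germline and cilium genes (42) and 17.1% for the other genes (554). The median difference was 5.61, 2.90, 0.231 and 1.84 points in that order. Among windows under 10% alone it was 5.73 points for transcription factor genes (178 windows), 7.66 for receptors, channels and transporters (20) and 3.40 for the other genes (95). Germline and cilium genes had 3 such windows.

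By side of the gene, known for 182 regions from the strand in GRCr8, the median difference was 3.34 points in 405 windows downstream and 2.70 in 308 upstream. Low windows had medians of 6.05 and 4.33 points, and quartiles of 2.05 to 11.2 and 1.74 to 7.69. A stretch inverted between both assemblies would swap the sides.

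Region by region, few sides carried the higher level outward without a break. Of 492 region sides, 164 had a used window at 1 to 2 kb, and on 34 of these, around 32 regions, the difference there was over 10 points with every UC above every control (20.7%, with 10.7% over all stretches). The run of such windows was 1 long on 28 sides, 2 long on 4 and 3 long on 2. Windows with too few CpGs ended 19 of the 34 runs, so those are lower limits, and 15 ended at a window that was measured. The mean difference at 1 to 2 kb was set beside the difference inside the region, as a description: over 109 regions Spearman's rho was -0.118 and Pearson's r -0.0879. Over the 59 regions with a low window there they were 0.179 and 0.591, and without Septin9, the region highest in both, 0.136 and 0.308. Both measures share the libraries and controls.

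The longest runs belonged to Zic1 and Gp1bb. On the lower-coordinate side of Zic1, a zinc-finger transcription factor gene of neural development, the window at 1 to 2 kb (chr8:98736470-98737469) was at 5.88%, 8.22% and 6.06% in controls 1 to 3 and 30.3%, 32.7%, 22.9%, 17.6% and 32.1% in UC 1 to 5 (13 CpGs, 48 to 89 calls per sample). Groups did not overlap, and the difference was 20.4 points. At 2 to 3 kb the levels were 4.17%, 4.15% and 4.39% in controls 1 to 3 and 55.3%, 68.7%, 10.4%, 18.7% and 14.5% in UC 1 to 5, where UC 1 and UC 2 stood far above the other UCs. At 3 to 4 kb they were 6%, 6.85% and 0% in controls 1 to 3 and 47.4%, 38.5%, 13.8%, 33.8% and 9.72% in UC 1 to 5, and control 3, with 0 of 40 calls, could hold up to 7.50% on counting alone. Neither window had a UC among the controls.

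Farther out on the other side of Zic1 the change was larger than in the region itself. Inside the region the level was 1.82%, 0% and 12.5% in the controls and 18.2%, 25.5%, 8.22%, 27.5% and 16.3% in the UCs, and control 3 lay above UC 3. At 4 to 5 kb (chr8:98742514-98743513) it was 28.2%, 24.9% and 28.4% in controls 1 to 3 and 77.7%, 80.2%, 37.6%, 75.1% and 69.6% in UC 1 to 5 (15 CpGs, 358 to 561 calls per sample), 27.2% ± 1.93 (SD, n = 3) in the controls and 68.0% ± 17.5 (SD, n = 5) in the UCs. Every UC was above every control there, UC 3 by far the least. At 3 to 4 kb on that side UC 3, at 14.5%, was among the controls (11.9%, 17.01% and 16.8%), while the other UCs were at 60.4% to 73.3%.

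Upstream of Gp1bb the run had another shape, since those windows were already methylated in controls. At 1 to 2 kb (chr11:86518944-86519943) the levels were 80%, 70.4% and 76.6% in controls 1 to 3 and 93.1%, 95.1%, 83.6%, 89.0% and 85.5% in UC 1 to 5. At 2 to 3 and 3 to 4 kb the differences were 14.8 and 13.2 points, also with no overlap. The next window held the unmethylated DNA described above, where the difference was 0.645 points.

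Septin9, which encodes a cytoskeletal GTP-binding protein and is known as a methylation marker in human colorectal cancer, moved in opposite directions on its sides at 1 to 3 kb. Its region (chr10:106240855-106240948) was at 0.187%, 0.465% and 0.735% in the controls and 85.2%, 85.1%, 48.6%, 66.6% and 60.9% in the UCs. Downstream at 1 to 2 kb (chr10:106241949-106242948) the level was 1.99%, 3.85% and 3.37% in controls 1 to 3 and 64.8%, 69.5%, 46.3%, 56.0% and 50.5% in UC 1 to 5 (25 CpGs, 482 to 951 calls per sample), 3.07% ± 0.961 (SD, n = 3) in the controls and 57.4% ± 9.65 (SD, n = 5) in the UCs. All UCs were far above the controls, and at 2 to 3 kb the difference was still 35.5 points.

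Upstream of Septin9 at 1 to 2 kb (chr10:106238855-106239854) the level was 72.1%, 67.0% and 68.2% in controls 1 to 3 and 10.3%, 4.18%, 24.1%, 43.1% and 41.03% in UC 1 to 5 (7 CpGs, 106 to 290 calls per sample). All UCs were below all controls, UC 2 the lowest, and the difference was -44.6 points. At 2 to 3 kb upstream it was -40.1 points and at 9 to 10 kb -22.9 points, again without overlap. Not every downstream window rose. The median difference of the 9 windows of Septin9 was -11.6 points and only 4 lay upstream, so a downstream window beyond 3 kb fell too. Downstream at 3 to 4 and 4 to 5 kb no window was called, on 28 to 110 and 9 to 27 calls per sample. At 6 to 7 kb downstream a window was called higher, a call lost in 6 alternatives.

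Dmrt2, a DM-domain transcription factor gene of somite development, gained on both sides. Downstream at 1 to 2 kb, a dense window of 51 CpGs (chr1:243663955-243664954), the levels were 3.37%, 3.28% and 2.62% in controls 1 to 3 and 12.3%, 12.04%, 13.9%, 23.6% and 21.5% in UC 1 to 5, and UC 4 and UC 5 were the highest. At 2 to 3 kb they were 15.1%, 20.3% and 15.7% in controls 1 to 3 and 65.0%, 68.1%, 21.8%, 81.5% and 82.2% in UC 1 to 5, with UC 3 just above the controls. Upstream at 4 to 5 kb they were 43.7%, 37.6% and 38.9% in controls 1 to 3 and 81.5%, 79.9%, 66.2%, 71.1% and 72.0% in UC 1 to 5, a difference of 34.1 points, although the nearer window at 2 to 3 kb differed by 4.22 points.

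In several regions the strongest rise that was measured lay far out. Around Nr2f2, the gene of the orphan nuclear receptor COUP-TFII, the windows at 1 to 2 kb on both sides, at 2 to 4 kb on the lower-coordinate side and at 4 to 5 kb on the other had differences from -4.30 to -0.163 points, and no sample there exceeded 8.80%. At 8 to 9 kb (chr1:131463129-131464128) the level was 5.19%, 8.41% and 5.79% in controls 1 to 3 and 78.9%, 80.1%, 39.2%, 73.9% and 73.2% in UC 1 to 5 (30 CpGs, 579 to 848 calls per sample), 6.46% ± 1.72 (SD, n = 3) in the controls and 69.0% ± 16.95 (SD, n = 5) in the UCs. UC 3 stood between the controls and the other UCs, and the difference of 62.6 points was the largest of all 966 windows. At 9 to 10 kb, with 43 CpGs, it was 33.3 points. Inside the listed region fewer than 3 CpGs met the minimum in some sample, so it has no level here.

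Grin1 had only 2 used windows, and nothing nearer than 5 kb was measured. The window at 5 to 6 kb downstream (chr3:2528654-2529653) was at 7.33%, 2% and 7.49% in controls 1 to 3 and 79.4%, 73.6%, 45.0%, 66.3% and 67.4% in UC 1 to 5 (7 CpGs, 50 to 191 calls per sample). Groups were far apart there, 60.7 points against 14.5 inside the region, and the window at 7 to 8 kb was near 0 in every sample, at 1.27%, 0.619% and 1.003% in the controls and 0.860%, 1.496%, 1.66%, 1.09% and 1.36% in the UCs. Stc2, the gene of the secreted glycoprotein stanniocalcin 2, differed by -0.182 points at 1 to 2 kb upstream and 6.01 downstream. A window at 4 to 5 kb downstream, with 15 to 73 calls per sample, was called higher, a call lost in 6 alternatives. At 7 to 8 kb downstream (chr10:16549896-16550895) its levels were 24.2%, 29.2% and 24.1% in controls 1 to 3 and 80.1%, 81.8%, 66.5%, 89.2% and 82.2% in UC 1 to 5, a difference of 54.1 points without overlap, and at 9 to 10 kb both groups were highly methylated with a difference of -0.751 points.

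Other regions lost methylation beside the promoter that gained it. Bfsp1, the gene of the lens protein filensin, had the most negative window of all, at 9 to 10 kb downstream (chr3:137959808-137960807): 73.7%, 79.3% and 97.9% in controls 1 to 3 and 14.1%, 7.38%, 25.4%, 0% and 0% in UC 1 to 5 (7 CpGs, 41 to 122 calls per sample). UC 4, with 0 of 41 calls, could hold up to 7.32% and UC 5, with 0 of 103, up to 2.91% on counting alone. The difference was -74.2 points there and -35.1 at 6 to 7 kb, while the region itself differed by 21.1 points. Upstream the difference was -41.6 points at 1 to 2 kb, on 9 to 24 calls per sample and with control 1 level with UC 3, and 14.2 at 9 to 10 kb. Both upstream calls were lost in many alternatives (9 of 14 and 10 of 15).

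Krt83, a hair keratin gene, had differences of -34.0 points at 4 to 5 kb and -45.6 at 5 to 6 kb downstream, where the levels were 85.9%, 91.4% and 94.2% in controls 1 to 3 and 59.4%, 52.6%, 73.2%, 21.2% and 18.1% in UC 1 to 5. Here UC 4 and UC 5 were the lowest and UC 3 the highest of the UCs, all below the controls. Spata18, known as a mediator of mitochondrial quality control that is abundant in testis, was at 76.7%, 82.8% and 75.2% in controls 1 to 3 and 23.4%, 29.9%, 47.2%, 23.9% and 17.2% in UC 1 to 5 at 2 to 3 kb downstream, a difference of -49.9 points without overlap. At LOC687707 the window at 8 to 9 kb was at 83.7%, 83.3% and 95.5% in controls 1 to 3 and 12.1%, 13.9%, 67.5%, 27.9% and 28.2% in UC 1 to 5, with UC 3 far above the other UCs and below the controls, and the remaining 4 windows had differences from -10.4 to 0.636 points with overlap between the groups.

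**Figure D5:**
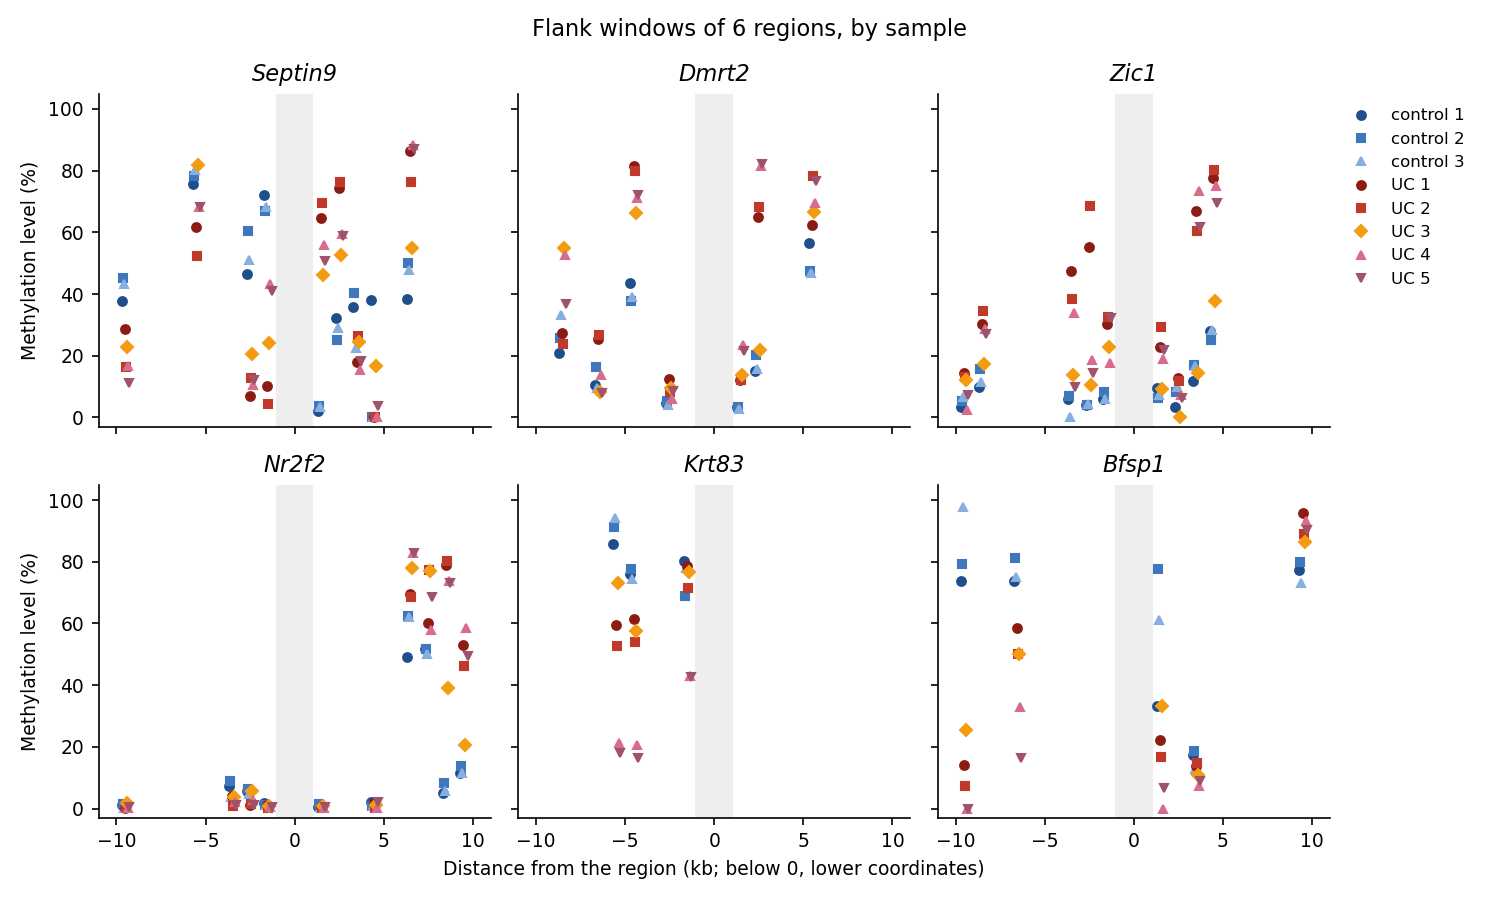
Methylation level (%, y axis) of each sample in the used windows of 6 regions, by distance from the region (kb, x axis; below 0 toward lower coordinates; grey, the region and its 1-kb margin); blue symbols are controls, red or orange ones UCs. At 1 to 2 kb Septin9 rises on one side (54.3 points) and falls on the other (-44.6). Dmrt2 and Zic1 rise on both sides, and Nr2f2 rises at 8 to 10 kb on one side. Krt83 is lower at 4 to 6 kb, and Bfsp1 has 3 windows called lower and 1 called higher.

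The 5 regions with most windows and none called were those of Sp9, Fundc2, Lhx5, Gbx2 and Nkx6-1. The 16 windows of Sp9 had control means from 1.34% to 36.1% and differences from -5.67 to 10.3 points with a median of 2.63. Those of the homeobox genes Lhx5 (11 windows), Gbx2 (10) and Nkx6-1 (10) had median differences of 3.89, 4.13 and 3.21 points. As no window was called, small differences were favoured by how these regions were chosen, but a window over 10 points could go uncalled. Gbx2 had 2 such windows, with differences up to 18.6 points, and Sp9 and Nkx6-1 had 1 each. Fundc2, a gene of the mitochondrial outer membrane, differed from them: its 12 windows had a median control level of 96.3%. Their differences lay between -2.24 and 3.15 points, and its region differed by 39.7 points. A window at such a control level has no room for a rise like that and cannot show whether it extended. The longest low domains, of at least 5 unbroken windows under 10% in controls, lay beside Lhx5, Pax2 and Pax7, all transcription factor genes (Pax2 and Pax7 were named after their values were seen). None of these 3 sides had a run of higher windows.

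The 4 genes that the study followed for expression differed in their flanks. Around Cpxm1, which encodes a secreted carboxypeptidase-like protein, the 3 windows at 1 to 4 kb downstream had control levels of 91.5% to 100%. Their differences were -3.04, -0.565 and -0.814 points with overlapping groups, and the nearest window had 10 to 71 calls per sample. Such levels leave no room for a rise like the 34.9 points inside the region, so these windows cannot show whether it extended. Kcnd3, the gene of a fast-inactivating potassium channel, was at 3.44%, 5.77% and 3.41% in controls 1 to 3 and 16.7%, 14.4%, 6.94%, 13.3% and 15.1% in UC 1 to 5 at 1 to 2 kb upstream. Every UC was above every control, UC 3 the least, with a difference of 9.10 points, while at 6 to 7 kb downstream the difference was -23.2 points with all UCs below. Tbx20, a T-box factor of heart development, had 4 windows at 3 to 9 kb downstream with differences from -22.8 to 5.18 points, and the groups overlapped in each. Opcml, the gene of a cell adhesion molecule, had 3 flank CpGs and no used window.

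A large difference inside a region could lie beside small or opposite ones. Mmp23 had the largest inside difference among regions with a window at 1 to 2 kb, 71.0 points, yet at 1 to 2 kb its levels were 37.5%, 44.1% and 49.9% in controls 1 to 3 and 61.3%, 60%, 38.5%, 25.9% and 21.1% in UC 1 to 5 downstream, where UC 1 and UC 2 were above and UC 4 and UC 5 below the controls. Upstream at 3 to 4 kb all UCs were below the controls, at 85.1%, 87.0% and 90.7% in the controls and 39.8%, 60.7%, 66.2%, 33.7% and 38.8% in the UCs. Of the 3 regions with the smallest inside differences, again among those with a window at 1 to 2 kb, Fbxl7, a gene of a ubiquitin ligase subunit, had 2.94%, 3.70% and 0% in the controls and 30%, 28.6%, 4.76%, 1.79% and 14.9% in the UCs at 1 to 2 kb, where UC 4 lay among the controls. Ntf3, the gene of neurotrophin 3, differed by 2.27 points at 1 to 2 kb downstream and 3.53 upstream, and Lhx5 by at most 9.76 points in any window.

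UC 1, UC 2, UC 4 and UC 5 differed less from each other than from the controls, and UC 3 was nearer to the controls than to any other UC. Over the 966 windows the root mean square difference between 2 samples was 6.55 to 6.77 points between controls, 6.47 between UC 1 and UC 2 and 6.43 between UC 4 and UC 5, but 13.7 to 15.3 points between any other pair of UCs. UC 3 was nearest to the controls, at 10.7 to 11.4 points, and the other UCs were 16.9 to 18.9 points from them. UC 1 with UC 2, and UC 4 with UC 5, were thus as close as controls are to each other. With each of these pairs merged into 1 sample, 77 windows were called higher and 30 lower (7.97% and 3.11%, with 6.09% and 6.02% over all stretches).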

How the data were processed

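Methylation was measured by RRBS in 8 samples (3 controls, 5 UCs). Per the study's methods the authors digested DNA with TaqaI and MspI, mapped reads with RRBSMAP, kept unique alignments, removed duplicates by barcode and wrote files per CpG (build rn6; the submitters' processing notes also name HOMER). The deposited values are counts of methylated C calls and of all C and T calls per CpG, and an expected count (an effective number of calls) used in 1 alternative. CpGs were listed from 3 reads upward. The samples held 51434938 to 73836223 calls at 2526077 to 2821347 CpGs, and the flanks 267998 to 378968 calls.

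From these files, levels were sums of C calls over sums of calls. The coordinates of the 246 regions came from the study's list; 2 gene names turned into dates there, Marchf11 and Septin9, were restored from their descriptions. A CpG near several regions was given to the nearest, and 78 flank CpGs lay within 10 kb of a second region. A used window had a median of 8 CpGs and 153 calls per sample (9 to 8964). At that depth a level of 50% has a 95% Wilson interval of 41.9% to 57.5%; intervals and the limits of 3 calls cover counting error only. All remaining CpGs formed fixed 1-kb stretches with the same minimum. Calls used a quasi-binomial F-test, dispersions moderated by limma 3.58.1 (R 4.3.3), and Benjamini-Hochberg adjustment over 241346 stretches, tested on simulated data; other steps used Python 3.11.15. p-values measure only the spread between these samples.

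The members, gene classes and named genes were chosen with earlier results of these data known. Named are 5 region sides with the longest runs (1 is not reported here), 5 regions each with the largest and the most negative called window, 5 with most windows and none called, 4 genes of the study, and 3 each with the largest and smallest inside difference among regions with a window at 1 to 2 kb. Alternatives changed the minimum reads, CpGs, calls and difference, the weights, the test and its moderation, regions with neighbours, chromosomes, merged UCs, a replicate block and single samples. The same numbers of controls and UCs do not pair them. No rn6 genome was used here, so density is that of CpGs listed in the files.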

Additional observations from a re-analysis of the deposited data

Results flagged for a closer look

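52 groups of 5 UC values were examined for a sample far from the others, by Dixon's ratio of the gap to the whole range (limit 0.71 for 5 values), and 4 were flagged. With independent values chance flags about 1 in 20 groups, or 2.6 here. The same UCs gave every group, and UC 1 with UC 2 and UC 4 with UC 5 were close, so that rate does not strictly apply. UC 3 was the sample apart in each flagged group. It was at 39.2% in the window 8 to 9 kb from Nr2f2 and 21.8% at 2 to 3 kb downstream of Dmrt2. On the higher-coordinate side of Zic1 it was at 14.5% at 3 to 4 kb and 37.6% at 4 to 5 kb. In all 4 windows UC 3 was the lowest UC, and in the first Zic1 window it was among the controls. Why UC 3 stood apart was not tested.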

How the results depend on the processing

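Differences by distance kept their direction in all 144 values of the alternatives. Weighing windows equally moved 5 of them, to 5.54 points at 1 to 2 kb, 3.17 at 3 to 4, 1.99 at 5 to 6, 2.19 at 6 to 7 and 1.03 at 9 to 10 kb. Leaving out single samples gave 2.58 to 4.48 points at 6 to 7 kb and an unbroken higher level up to 2 to 4 kb, which also reached 4 kb with CpGs listed in all samples. Counts of calls moved most. Windows called higher were 61 with a difference over 20 points (6.31% against 6.05% of all stretches), 79 without moderation (8.18% against 6.57%) and 77 with UCs merged (7.97% against 6.09%). Without single samples they ranged from 73 without control 3 (7.56% against 5.72%) to 172 without UC 3 (17.8% against 13.5%). Windows called lower were 27 of 646 windows with at least 10 reads (4.18% against 9.06%), 28 without moderation (2.90% against 6.25%) and 30 with UCs merged (3.11% against 6.02%). Without single samples they ranged from 22 without control 3 (2.28% against 5.56%) to 75 without UC 3 (7.76% against 11.4%). The cause was not tested, beyond fewer samples, reads or a higher limit by construction. Replicate numbers did not pair the samples (correlations of deviations -0.0106 to 0.0407). With the replicate block, limma on M values called 101 higher (10.5% against 6.59% of all stretches) and 27 lower (2.80% against 5.96%). UC 1 to 3 minus controls 1 to 3, paired, gave 9.14 points at 1 to 2 kb. Class medians stayed within the spread between UCs in 125 of 126 values; germline and cilium windows ranged over 0.00531 to 1.67 points without single samples. Of the 35 called windows of the named regions none reversed, but calls were lost in 108 of 543 values: 11, 13 and 16 without control 1, 2 and 3, 14 with the replicate block and 13 with UCs merged. The calls of Krt83 at 4 to 5 kb and Nr2f2 at 6 to 7 kb were lost in 10 alternatives each. Most windows rest on few CpGs near cut sites, so a run can end for want of data.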
